A study of Mus musculus with 9 samples.

Results

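A set of 40 genes of DNA replication and S phase was followed in whole brain of mouse embryos at embryonic day 14. They were given as a list of 40 gene symbols, chosen with earlier results of these data known. Comparisons of their shares with all tested genes are therefore descriptions only. Each was found in the raw count table through its Ensembl identifier, so the set holds 40 of the 56748 genes in the table. All 40 had enough counts to be tested. The 9 libraries formed 3 groups of 3. The first had been exposed to valproic acid, an anticonvulsant that inhibits histone deacetylases, the second to poly(I:C), synthetic double-stranded RNA used as a stand-in for a virus, and the control group to saline. The design text calls the unexposed mice wildtype; dose, day and route of exposure, strain, litter and sex were not stated in the labels. Whether each library of a group is its own embryo, or its own litter, is not stated either, so every p-value measures the spread between these libraries, which may be technical in part.

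Before a cell divides, the origin recognition complex with Cdc6 and Cdt1 loads the MCM2-7 ring onto origins of replication, which is called licensing. Cdc45 and the GINS complex then turn the ring into the working helicase, and the polymerases, the sliding clamp PCNA, its loader RFC, the single-strand binding protein RPA, FEN1 and DNA ligase 1 copy and seal the strands while ribonucleotide reductase and thymidylate synthase supply the nucleotides. Transcription of most of these genes is switched on at the G1/S boundary by E2F factors once cyclin-dependent kinases release them from RB proteins. In the embryonic brain the cells that cycle are mainly the progenitors that line the ventricles and the intermediate progenitors next to them, whereas neurons have left the cycle.

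Libraries held 15399974 to 19883131 counts, and the 40 genes took 0.189 to 0.212% of them. Levels are given in CPM, the count of a gene scaled to a common library size and corrected by TMM factors (trimmed mean of M-values). Sex-linked transcripts differed within and between groups. Xist, which female cells transcribe from their inactive X, reached 979 to 1050 CPM in each valproic acid library and poly(I:C) replicate 3, while the other 5 libraries held 0.236 CPM or less. Y-linked transcripts summed to 196 to 201 CPM in poly(I:C) replicates 1 and 2 and in control replicates 1 and 2 and to 0 elsewhere, so control replicate 3 had neither signal. No control library had Xist and no valproic acid library had Y-linked transcripts, so sex and exposure to valproic acid cannot be told apart in these data.

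The promoters of the MCM2-7 genes are shown first, because this ring held 5 of the 6 replication genes that passed against control. RefSeq promoter windows (build GRCm38.p6, 250 bases before to 50 after an annotated start) were available for 33 of the 40 genes, in 37 windows, and for 5 of the 6 MCM2-7 genes. An E2F-type motif was searched as the letters TTTCCCGC, TTTGGCGC, TTTGCCGC or TTTCGCGC on either strand, and the CCAAT box, to which NF-Y binds, as CCAAT on either strand. The 180 bases before each start are printed 5′ to 3′ on the gene's own strand, with matches to either motif in capitals. A match on the opposite strand appears as its reverse complement, such as GCGGGAAA or ATTGG. The matches of Mcm3 to the E2F-type motif lie after its start, and a stretch of 30 bases with both, bases 17 to 46 after the start, is printed last.
Mcm2 promoter, chr6:88898781-88898960, minus strand: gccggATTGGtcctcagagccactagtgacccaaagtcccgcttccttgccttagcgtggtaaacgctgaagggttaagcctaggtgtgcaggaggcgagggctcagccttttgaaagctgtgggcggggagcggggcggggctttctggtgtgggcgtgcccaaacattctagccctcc
Mcm3 promoter, chr1:20820313-20820492, minus strand: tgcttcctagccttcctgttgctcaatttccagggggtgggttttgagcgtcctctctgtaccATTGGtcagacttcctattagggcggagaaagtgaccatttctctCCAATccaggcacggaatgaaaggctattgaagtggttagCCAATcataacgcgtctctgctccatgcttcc
Mcm5 promoter, chr8:75109329-75109508, plus strand: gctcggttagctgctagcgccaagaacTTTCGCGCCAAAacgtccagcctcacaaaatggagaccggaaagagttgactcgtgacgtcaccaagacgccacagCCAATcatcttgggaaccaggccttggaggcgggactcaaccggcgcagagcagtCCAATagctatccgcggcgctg
Mcm6 promoter, chr1:128359706-128359885, minus strand: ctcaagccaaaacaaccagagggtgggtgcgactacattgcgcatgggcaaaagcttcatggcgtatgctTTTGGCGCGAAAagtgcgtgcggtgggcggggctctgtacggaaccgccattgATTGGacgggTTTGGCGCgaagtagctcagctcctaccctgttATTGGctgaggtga
Mcm7 promoter, chr5:138171884-138172063, minus strand: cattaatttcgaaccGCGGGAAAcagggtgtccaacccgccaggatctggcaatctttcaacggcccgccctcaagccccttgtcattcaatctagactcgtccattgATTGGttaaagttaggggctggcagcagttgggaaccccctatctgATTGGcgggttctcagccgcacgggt
Mcm3 after its start, chr1:20820267-20820296, minus strand: gtgGCGGGAAAacttgggaagtTTTGGCGC

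Mcm3, Mcm5, Mcm6 and Mcm7 had an E2F-type match in a window and Mcm2 had none, while all 5 had a CCAAT box. Mcm7 had 2 windows, and the one not printed held a CCAAT box and no E2F-type match. Its other window held a second E2F-type match, TTTCGCGC at bases 17 to 24 after the start, outside the printed bases. In Mcm5 and in Mcm6 an upstream pair of E2F-type matches, one on each strand, overlapped, so they run together in the capitals as TTTCGCGCCAAA and TTTGGCGCGAAA. Among all 40 genes, 11 of the 33 with a window held an E2F-type match, in 11 of 37 windows (29.7%), against 744 of 32851 windows (2.26%) of all genes in the RefSeq table. CCAAT occurred in 21 of the 37 windows (56.8%), against 37.4% of all windows. The window of E2f1 itself held neither motif. A match is a description of these letters in these windows and does not show binding in embryonic brain. Most of the 40 genes are known to be switched on by E2F factors, so their higher share of E2F-type matches is no independent evidence.

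**Figure D1:**
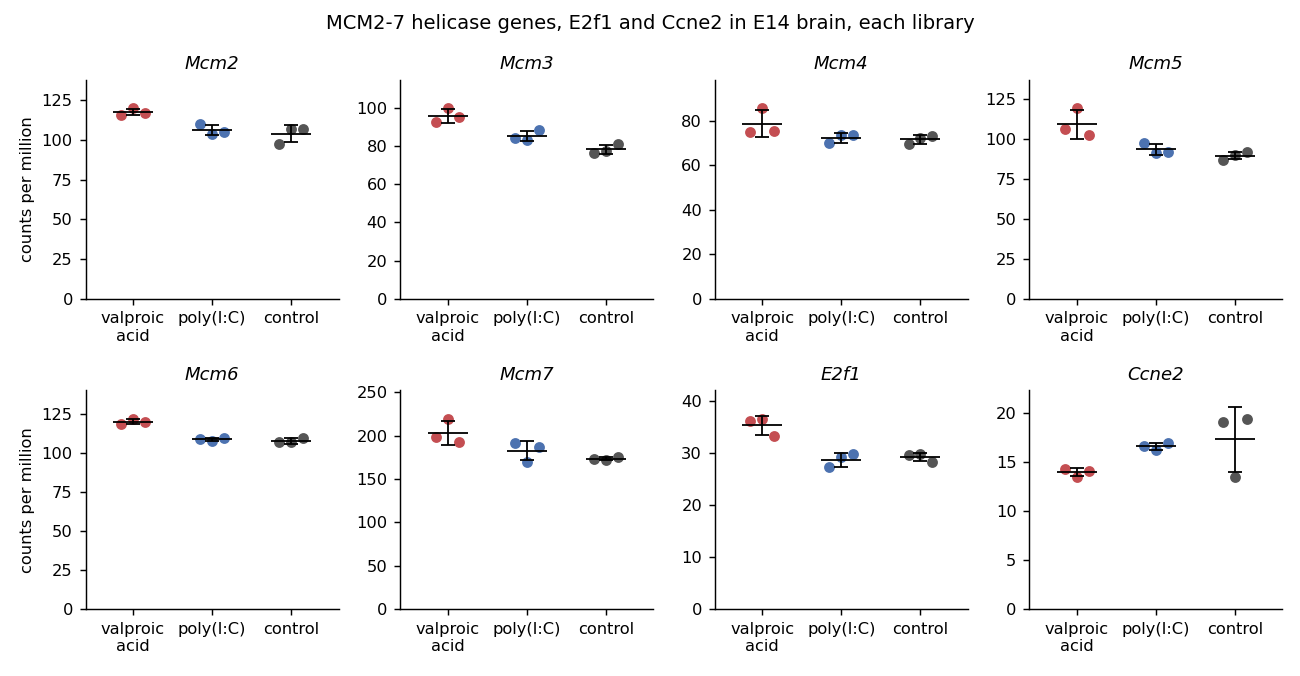
Level in CPM of the 6 MCM2-7 genes, E2f1 and Ccne2 in each library, 1 point a library, with the mean (horizontal line) and SD (error bar) of 3 libraries per group. For every MCM2-7 gene and for E2f1 the 3 valproic acid libraries lie above all 6 others.

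Valproic acid was first compared with control. The MCM2-7 helicase genes were higher in brains exposed to valproic acid: 5 of the 6 (Mcm2, Mcm3, Mcm5, Mcm6 and Mcm7) rose by 1.11-fold to 1.22-fold and passed the test, and Mcm4 was 1.10-fold higher without passing it. E2f1, the transcription factor that activates S phase genes, rose by 1.21-fold. No other gene of the 40 passed and none fell, so 6 of 40 were called (15%), where 6.35% of all 17171 tested genes were called in either direction, 3.57% higher and 2.78% lower. Calls rest on a Benjamini-Hochberg adjusted p under 0.05 over all tested genes in edgeR's quasi-likelihood F-test. In bulk tissue a larger share of cycling cells and more RNA per cycling cell cannot be told apart.

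Mcm3 (ENSMUSG00000041859) and Mcm5 (ENSMUSG00000005410), neighbours in the ring, had the smallest adjusted p of the 40 genes. Mcm3 was at 92.3, 99.7 and 95.1 CPM in valproic acid libraries, 84.3, 82.9 and 88.4 CPM in poly(I:C) libraries and 76.3, 77.4 and 80.8 CPM in control libraries. The 3 groups did not overlap, with poly(I:C) between the others. Against control its log2 fold change with valproic acid was 0.29 ± 0.048 (SE), with an adjusted p of 0.00314 in edgeR. Mcm5 was at 106, 119 and 102 CPM in valproic acid libraries, 97, 91 and 91.8 CPM in poly(I:C) libraries and 86.8, 89.9 and 91.5 CPM in control libraries. Each valproic acid library exceeded all others, while poly(I:C) and control overlapped. Its log2 fold change against control was 0.29 ± 0.055 (SE), with an adjusted p of 0.00782 in edgeR. Mcm3 and Mcm5 passed in each of the 6 fits that left out 1 library, with adjusted p-values of at most 0.0192 and 0.0383 in edgeR.

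Mcm7 (ENSMUSG00000029730) was the most abundant of the ring genes per length. It was at 198, 219 and 193 CPM in valproic acid libraries, 191, 170 and 187 CPM in poly(I:C) libraries and 173, 172 and 175 CPM in control libraries. Valproic acid and control did not overlap, and the control libraries lay close together. The log2 fold change against control was 0.23 ± 0.050 (SE), with an adjusted p of 0.0158 in edgeR. In GENCODE release M21 Mcm7 holds the microRNA genes Mir25, Mir93 and Mir106b on its own strand and overlaps Cops6 and Ap4m1 on the opposite strand. The strand setting of the counting was not stated, so reads of Cops6 or Ap4m1 in the shared stretches cannot be told apart from those of Mcm7.

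Mcm2 (ENSMUSG00000002870) and Mcm6 (ENSMUSG00000026355) rose less. Mcm2 was at 116, 120 and 117 CPM in valproic acid libraries, 110, 104 and 105 CPM in poly(I:C) libraries and 97.8, 107 and 107 CPM in control libraries. Mcm6 was at 119, 122 and 120 CPM in valproic acid libraries, 109, 108 and 110 CPM in poly(I:C) libraries and 107, 107 and 110 CPM in control libraries. For both genes the valproic acid libraries lay close together and above all others. Against control the log2 fold change was 0.18 ± 0.046 (SE) for Mcm2, with an adjusted p of 0.0322 in edgeR. For Mcm6 it was 0.15 ± 0.038 (SE), with an adjusted p of 0.0290 in edgeR. Mcm4 (ENSMUSG00000022673) was at 74.9, 85.6 and 75.3 CPM in valproic acid libraries, 69.8, 73.5 and 73.5 CPM in poly(I:C) libraries and 69.5, 72.2 and 73.3 CPM in control libraries. Its valproic acid libraries also exceeded all others, replicates 1 and 3 only narrowly, and its log2 fold change of 0.13 ± 0.056 (SE) did not pass, with an adjusted p of 0.171 in edgeR.

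E2f1 (ENSMUSG00000027490) was at 36.3, 36.6 and 33.3 CPM in valproic acid libraries, 27.3, 29.2 and 29.8 CPM in poly(I:C) libraries and 29.7, 29.9 and 28.4 CPM in control libraries. The valproic acid libraries stood above the other 6, which overlapped each other. The log2 fold change against control was 0.27 ± 0.066 (SE), with an adjusted p of 0.0256 in edgeR. The cyclin E genes, partners of CDK2 at the same step, did not pass. Ccne1 had a log2 fold change of 0.12 against control. Ccne2, chosen after its values were seen because it ran the other way, was at 14.3, 13.5 and 14.1 CPM in valproic acid libraries, 16.6, 16.2 and 17.0 CPM in poly(I:C) libraries and 19.1, 13.5 and 19.4 CPM in control libraries. Control replicate 2 lay at the level of the valproic acid libraries, and the log2 fold change of -0.31 had an adjusted p of 0.135 in edgeR. Without that library it was -0.46 with an adjusted p of 0.0139 in edgeR.

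Calls outside Mcm3 and Mcm5 did not hold in every fit that left out 1 library, and such fits have fewer degrees of freedom. Leaving out control replicate 1 or valproic acid replicate 2 left 2 of the 40 genes called, and leaving out control replicate 3 left 3. Without valproic acid replicate 3 the number was 4, and without replicate 1 of that group it was 5. Omitting control replicate 2 also gave 5, of which 4 were higher and Ccne2 was lower. Mcm7 passed in 4 of these 6 fits, and Mcm2, Mcm6 and E2f1 in 1 each, with log2 fold changes above 0 throughout. Over these fits they ran from 0.17 to 0.27 for Mcm7 and from 0.14 to 0.20 for Mcm2. The range was 0.15 to 0.17 for Mcm6 and 0.25 to 0.31 for E2f1. With Y-linked expression as a covariate, which separates valproic acid from 2 of the 3 control libraries, or Xist, which separates it from all 3, none of the 40 was called in edgeR, 12 and 4 of them having an unadjusted p under 0.05. Over all tested genes the number called also fell from 1090, under both covariates and without any 1 library, as the closing section gives. The loss of calls was therefore not particular to the 40 genes. The share of all tested genes with an unadjusted p under 0.05 under the covariates is not given here. With Y-linked expression the log2 fold changes were 0.17 for Mcm2, 0.24 for Mcm3, 0.28 for Mcm5, 0.13 for Mcm6, 0.21 for Mcm7 and 0.27 for E2f1. With Xist they were 0.21 for Mcm2, 0.21 for Mcm3, 0.32 for Mcm5, 0.13 for Mcm6, 0.18 for Mcm7 and 0.19 for E2f1. Only poly(I:C) held libraries both with and without Xist, and 1 library had it. The Xist estimates therefore rest largely on that library and cannot separate sex from valproic acid.

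**Figure D2:**
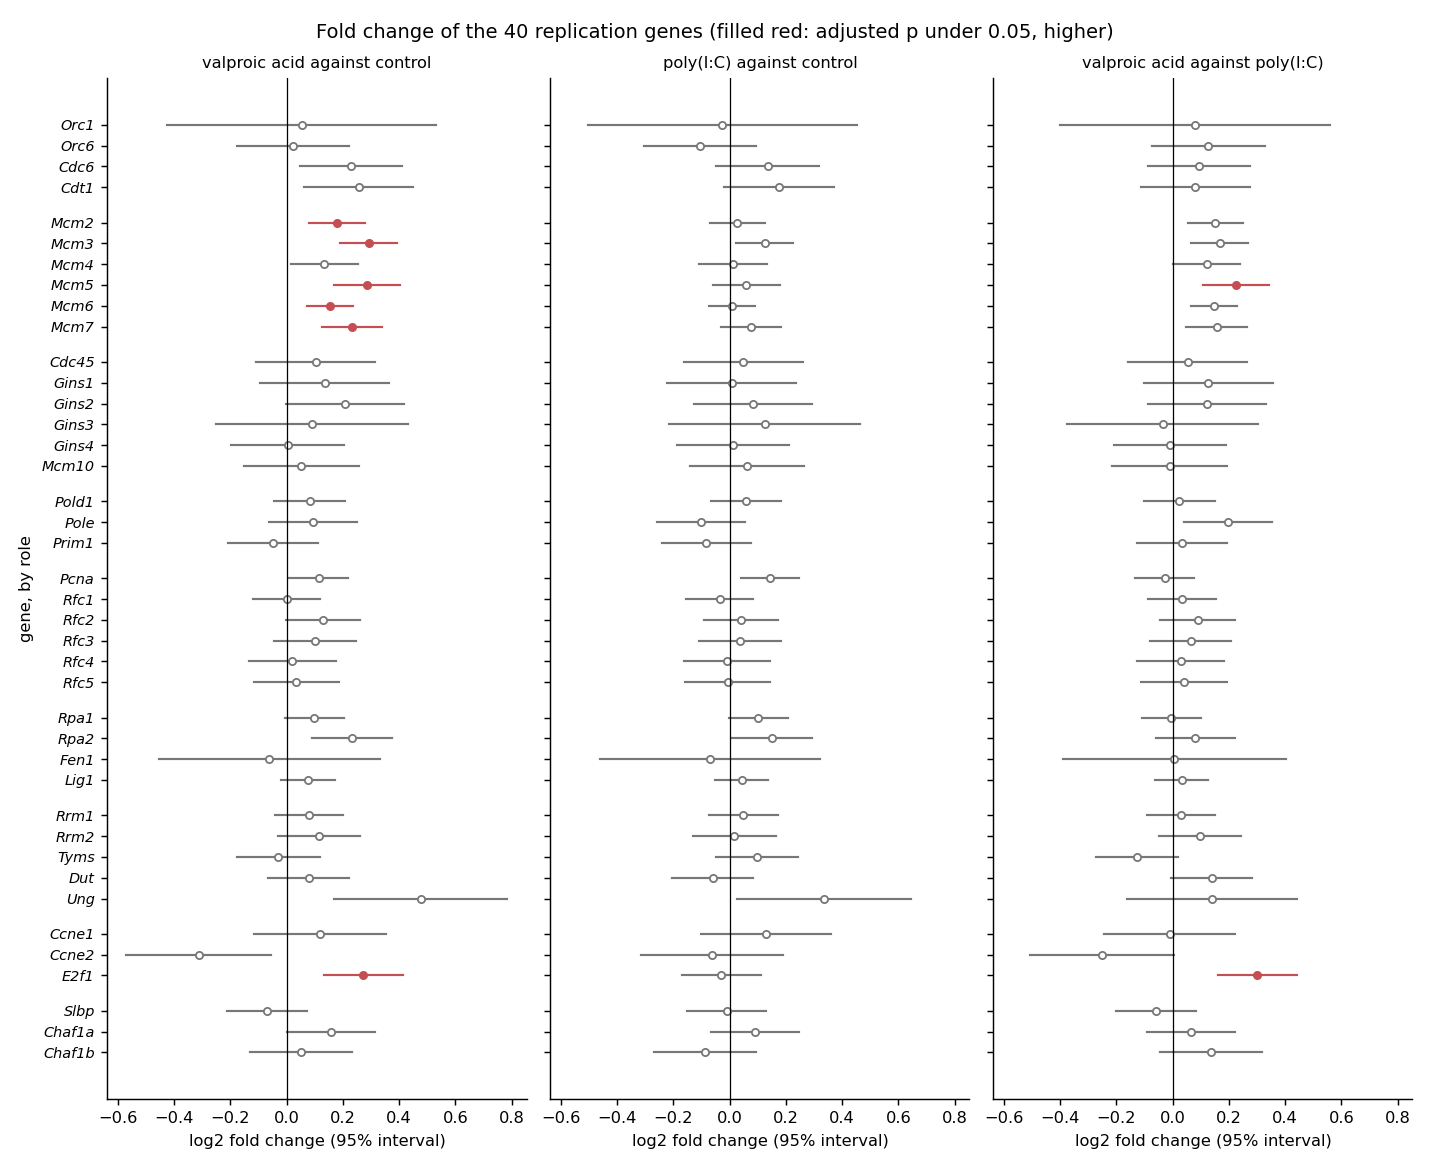
Log2 fold change of each of the 40 genes with its 95% interval, grouped by role from licensing (top) to chromatin assembly (bottom), for valproic acid against control, poly(I:C) against control and valproic acid against poly(I:C). Filled red points passed the test: 6 genes, none and 2 genes in the 3 panels from left to right.

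Of the 9 roles into which the 40 genes were sorted, the ring had the highest median. The median log2 fold change of valproic acid against control was 0.21 over the 6 MCM2-7 genes and 0.10 over all 40 genes, beside -0.0033 over all tested genes. Of the 40 log2 fold changes 34 were above 0, as were 49.1% of all tested genes. Because the 40 were chosen with earlier results of these data known, an excess over such shares is not independent support. In 13 of 40 genes (32.5%) every valproic acid library exceeded every control library, which happened in 12.6% of tested genes, and in none was it the reverse, which happened in 13% of tested genes. An unadjusted p under 0.05 in edgeR was found for 13 of the 40 genes, and for 22.1% of tested genes. The 6 ring genes were among these 13. As a share of the summed CPM of the 40 genes, MCM2-7 took 34.2, 35.3 and 34.9% with valproic acid, 32.8, 33.1 and 33.3% with poly(I:C) and 32.4, 33.2 and 32.8% in control. The valproic acid libraries had the highest shares.

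Among the licensing loaders, Orc1 and Orc6 of the origin recognition complex had log2 fold changes of 0.05 and 0.02 with valproic acid against control. The loaders Cdc6 and Cdt1 had 0.23 and 0.26 with adjusted p-values of 0.124 and 0.109 in edgeR, so their estimates were as large as those of the ring but their intervals were wider, 0.05 to 0.41 and 0.06 to 0.45. Their levels were low, 15.2 to 19.4 CPM for Cdc6 and 19.8 to 26.9 CPM for Cdt1 over the 9 libraries. The 6 genes that activate the helicase (Cdc45, Gins1 to Gins4, and Mcm10, which helps open the origin) all had log2 fold changes above 0, with a median of 0.10 and the largest, Gins2, at 0.21. None of them passed.

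Pold1 and Pole, the catalytic subunits of the lagging and leading strand polymerases, and the primase subunit Prim1 had log2 fold changes of 0.08, 0.09 and -0.05 with valproic acid against control. Pcna, the sliding clamp, was at 67.9, 64.8 and 66.3 CPM in valproic acid libraries, 70.3, 65.5 and 67.2 CPM in poly(I:C) libraries and 63.4, 60.9 and 59.7 CPM in control libraries. Both exposed groups lay above all control libraries, and they overlapped each other. Against control its log2 fold change with valproic acid was 0.11 ± 0.049 (SE), with an adjusted p of 0.181 in edgeR. The 5 genes of its loader, Rfc1 to Rfc5, ranged up to 0.13 and none passed.

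Rpa2, a subunit of the single-strand binding protein, was at 40.7, 40.7 and 37.6 CPM in valproic acid libraries, 39.1, 36.5 and 37.1 CPM in poly(I:C) libraries and 30.9, 35.5 and 35.0 CPM in control libraries. Valproic acid did not overlap control, and the log2 fold change of 0.23 ± 0.066 (SE) had an adjusted p of 0.0522 in edgeR, just outside the threshold. Rpa1, the large subunit, Lig1, which seals Okazaki fragments, and Fen1, which trims them, had log2 fold changes of 0.10, 0.08 and -0.06. Fen1 was counted at only 4.06 to 5.77 CPM over the 9 libraries, and its interval ran from -0.46 to 0.33.

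Ung, which removes uracil from DNA, was at 15.7, 16.9 and 25.7 CPM in valproic acid libraries, 18.6, 17.3 and 16.9 CPM in poly(I:C) libraries and 14.5, 13.8 and 13.5 CPM in control libraries. Both exposed groups lay above control, and valproic acid replicate 3 stood far above the other libraries. Its log2 fold change with valproic acid against control was 0.48 ± 0.14 (SE), the largest estimate of the 40, with an adjusted p of 0.0636 in edgeR. Without valproic acid replicate 3 it was 0.23, below Mcm3 and Mcm5, with an adjusted p of 0.205 in edgeR. Without valproic acid replicate 1 it was 0.61 and passed, with an adjusted p of 0.0235 in edgeR. Rrm1 and Rrm2, the subunits of ribonucleotide reductase, had log2 fold changes of 0.08 and 0.12, and Tyms (thymidylate synthase) and Dut (dUTPase) -0.03 and 0.08. The chromatin assembly genes Chaf1a and Chaf1b and the histone mRNA binding protein gene Slbp had 0.16, 0.05 and -0.07, and none of these 7 passed.

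Poly(I:C) was then compared with control. None of the 40 genes passed, where 0.536% of all tested genes did. By edgeR 4 of the 40 genes had an unadjusted p under 0.05, against 12% of all tested genes, so their share did not exceed the background. DESeq2, another count test, also called none of the 40, with 3 below that level. The median log2 fold change was 0.04 over the 40 genes and over the 6 ring genes, beside -0.0030 over all tested genes. In 6 of the 40 genes (15%) every poly(I:C) library exceeded every control library, against 9.61% of tested genes, and in none did every one lie below control, against 8.83% of tested genes. The comparison shares its control libraries with the one before.

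The 4 genes with the smallest p were Pcna, Mcm3, Ung and Rpa2, which all lay above control without overlap in the values given above. The log2 fold change with poly(I:C) against control was 0.14 ± 0.049 (SE) for Pcna, with an adjusted p of 0.244 in edgeR. For Mcm3 it was 0.12 ± 0.048 (SE), with an adjusted p of 0.300 in edgeR. Ung had 0.34 ± 0.14 (SE) and Rpa2 0.15 ± 0.066 (SE), with adjusted p-values of 0.366 and 0.383 in edgeR. A p that misses the threshold does not show equal levels, and the intervals of the ring genes give the sizes that fit these libraries. They ran from -0.07 to 0.09 for Mcm6, from -0.11 to 0.13 for Mcm4, from -0.07 to 0.13 for Mcm2, from -0.06 to 0.18 for Mcm5, from -0.03 to 0.18 for Mcm7 and from 0.02 to 0.23 for Mcm3. E2f1 had a log2 fold change of -0.03, with an interval from -0.17 to 0.11. Among only the 4 libraries with Y-linked transcripts, 2 a group, again none of the 40 was called, with 1 at an unadjusted p under 0.05 in edgeR.

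Valproic acid against poly(I:C) tests directly whether the exposures differed. E2f1 and Mcm5 were higher with valproic acid and passed, 2 of 40 genes (5%), where 2.59% of all tested genes passed, 1.42% higher and 1.18% lower. E2f1 averaged 35.4 ± 1.84 CPM with valproic acid and 28.8 ± 1.29 CPM with poly(I:C) (SD, n = 3 each), a log2 fold change of 0.30 ± 0.066 (SE) with an adjusted p of 0.0286 in edgeR. Mcm5 averaged 109.0 ± 8.47 CPM with valproic acid and 93.2 ± 3.25 CPM with poly(I:C) (SD, n = 3 each), a log2 fold change of 0.23 ± 0.055 (SE) with an adjusted p of 0.0432 in edgeR. For all 6 ring genes the groups did not overlap and the unadjusted p in edgeR was under 0.05. Over all tested genes, groups did not overlap in the higher direction in 10.5% and the unadjusted p was under 0.05 in 16.7%. The ring was singled out in valproic acid against control, which used the same valproic acid libraries. Its values here are therefore no independent support.

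The other ring genes had smaller estimates. The log2 fold changes of valproic acid against poly(I:C) were 0.17 for Mcm3, 0.16 for Mcm7, 0.15 for Mcm2 and for Mcm6, and 0.12 for Mcm4, with adjusted p-values of 0.0809, 0.119, 0.0981, 0.0604 and 0.292 in edgeR. Their median, with Mcm5, was 0.15, beside 0.07 over the 40 genes and 0 over all tested genes. Pole had 0.20 with an adjusted p of 0.181 in edgeR, and Ccne2, lower in every valproic acid library than in every poly(I:C) library, had -0.25 with an adjusted p of 0.314 in edgeR. Pcna, Rpa2 and Ung had -0.03, 0.08 and 0.14, and their groups overlapped. Without any 1 of poly(I:C) replicates 1, 2 and 3 and valproic acid replicates 1 and 2, none of the 40 was called in edgeR, with 5 to 9 at an unadjusted p under 0.05, and without valproic acid replicate 3 both calls stood. Since the groups did not overlap for the 6 ring genes, all 3 valproic acid libraries also lay above poly(I:C) replicate 3. That is the only poly(I:C) library with Xist, so this is no separate test of sex.

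Levels can be compared between genes only per length. Per kilobase of annotated exon (GENCODE M21) the control brains held 39.2 ± 0.345 CPM of Mcm7, the highest of the 40 (SD, n = 3). Mcm6, Mcm5, Mcm3, Mcm4 and Mcm2 followed within the ring at 23.2, 22.4, 20.8, 20.0 and 14.9 CPM per kilobase. In valproic acid brains the order was Mcm7 at 45.9, Mcm5 at 27.3, Mcm6 at 25.8, Mcm3 at 25.5, Mcm4 at 21.9 and Mcm2 at 16.9 CPM per kilobase. Mcm5 and Mcm6, whose order differed, lay closer together with valproic acid than the SD of Mcm5 there, 2.23 CPM per kilobase, so that difference in order did not exceed the spread. Rrm2, Pcna and Dut were the next most abundant outside the ring in control brains, at 27.1, 25.6 and 23.8 CPM per kilobase, and Orc1 was the least abundant, at 1.07.

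Markers of cell types and of mitosis were read as lists. Beside them, 3.57% of all tested genes were called higher and 2.78% lower with valproic acid against control. With valproic acid against control, 6 of 7 intermediate progenitor markers rose, among them Neurog2 and Eomes, factors that drive neurogenesis from these cells, with log2 fold changes of 0.57 and 0.37. Of 10 neural progenitor markers 3 rose, with the smallest adjusted p for Vim and Pax6 (0.28 and 0.27), and of 15 mitosis markers 4 rose, with the smallest adjusted p for Mki67 and Ccnb1 (0.34 and 0.23). Of 12 neuron markers 4 fell, with the smallest adjusted p for Map2 and Stmn2 (-0.16 for each). The summed intermediate progenitor markers ran from 806.0 to 850.8 CPM in valproic acid libraries, 670.1 to 711.6 CPM in poly(I:C) libraries and 626.1 to 671.0 CPM in control libraries. The summed neural progenitor markers ran from 2179 to 2279 CPM in valproic acid libraries, 2070 to 2132 CPM in poly(I:C) libraries and 2008 to 2063 CPM in control libraries, and the summed mitosis markers from 1214 to 1337 CPM in valproic acid libraries, 1142 to 1246 CPM in poly(I:C) libraries and 1111 to 1163 CPM in control libraries. The summed neuron markers ran from 7425 to 7858 CPM in valproic acid libraries, 8039 to 8454 CPM in poly(I:C) libraries and 8072 to 8290 CPM in control libraries. No marker was at 0 in all libraries, and the part that a different mix of cells has in the ring genes' levels was not tested.

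**Figure D3:**
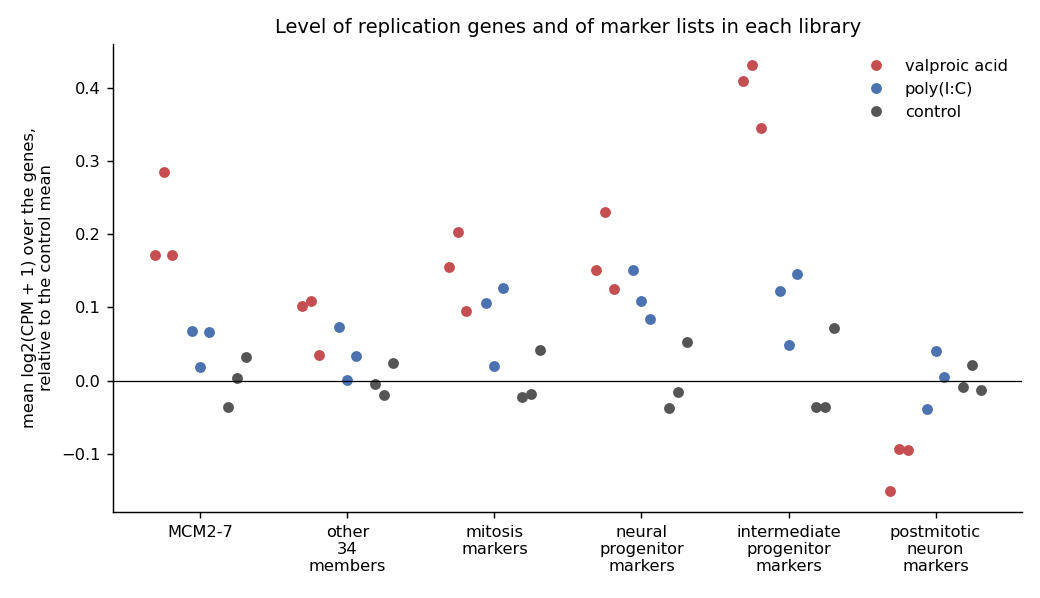
Mean log2(CPM + 1) of the MCM2-7 genes, the other 34 replication genes and 4 marker lists in each library, relative to the control mean, 1 point a library. The valproic acid libraries lie at 0.17 to 0.29 for MCM2-7, 0.04 to 0.11 for the other 34 genes and 0.35 to 0.43 for intermediate progenitor markers.

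Set against the neural progenitor markers within each library, the ring genes were higher in every valproic acid library than in any control library. The ratio of summed MCM2-7 to summed neural progenitor CPM was 0.316, 0.335 and 0.323 with valproic acid, 0.309, 0.298 and 0.317 with poly(I:C) and 0.304, 0.310 and 0.309 in control. Valproic acid overlapped poly(I:C) by 1 library of each. The same ratio for the other 34 genes was 0.609, 0.615 and 0.603 with valproic acid, 0.635, 0.603 and 0.634 with poly(I:C) and 0.636, 0.623 and 0.633 in control, so there valproic acid lay below control in every library. Against the summed intermediate progenitor markers the ring was lower with valproic acid, at 0.833, 0.898 and 0.873, than with poly(I:C), at 0.927, 0.939 and 0.924, and in control, at 0.976, 0.947 and 0.950, without overlap. Against the summed mitosis markers the ring stood at 0.563, 0.572 and 0.580 with valproic acid, 0.536, 0.551 and 0.526 with poly(I:C) and 0.549, 0.563 and 0.548 in control, where valproic acid and control met at 0.563.

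Markers of blood and vessel cells were read as well. With valproic acid against control 4 of 10 erythroid markers rose and their sum ran from 2255 to 2615 CPM in valproic acid libraries, 1384 to 2015 CPM in poly(I:C) libraries and 1792 to 2090 CPM in control libraries. Of 10 microglia markers 2 fell, of 8 endothelial markers 1 rose, and of 8 mural and meningeal markers 2 fell. Yet 6 of these 8 mural and meningeal markers had log2 fold changes above 0, with a median of 0.16. Their sum ran from 754.8 to 948.6 CPM in valproic acid libraries, 685.7 to 717.2 CPM in poly(I:C) libraries and 776.6 to 823.2 CPM in control libraries. Nucleated erythroid precursors divide as well, and their part in the replication genes' levels was not tested. With poly(I:C) against control Neurog2 was the only marker called in any of these lists, at a log2 fold change of 0.28 with an adjusted p of 0.00614 in edgeR. Of all tested genes 1.42% were called higher and 1.18% lower with valproic acid against poly(I:C). In that comparison 4 intermediate progenitor, 1 neural progenitor and 8 erythroid markers were higher and 3 neuron markers lower. Of the 8 mural and meningeal markers 4 were higher and 1 lower, and 1 endothelial marker was higher, while none of the 15 mitosis markers passed in edgeR, 2 of them having an unadjusted p under 0.05.

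Other genes of the same pathways were read from lists that exclude the 40. Beside these lists, 3.57% of all tested genes were called higher and 2.78% lower with valproic acid against control. The share called was 4.17% for further fork and origin genes and 7.14% for further nucleotide genes. Both lay near the 6.35% of all tested genes called in either direction. Of 24 further fork and origin genes 1 rose with valproic acid against control: Orc2, a subunit of the origin recognition complex, was at 33.4, 33.2 and 31.0 CPM in valproic acid libraries, 29.6, 28.6 and 28.9 CPM in poly(I:C) libraries and 27.2, 28.5 and 25.7 CPM in control libraries. The groups did not overlap, and its log2 fold change against control was 0.26 with an adjusted p of 0.0298 in edgeR. Of 25 regulators of the E2F and RB step 3 rose, namely the D-type cyclin genes Ccnd2 and Ccnd1, whose products start the inactivation of RB, and E2f4, an E2F best known for repression in resting cells. Ccnd2, the most abundant, averaged 749 ± 17.6 CPM with valproic acid and 654 ± 24.3 CPM in control (SD, n = 3 each), a log2 fold change of 0.20 with an adjusted p of 0.00861 in edgeR. Ccnd1 and E2f4 both had 0.27, with adjusted p-values of 0.0195 and 0.0116 in edgeR.

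Of 11 genes that maintain chromatin and DNA methylation behind the fork 2 rose. Uhrf1, which brings the maintenance DNA methyltransferase to newly copied DNA, was at 121, 129 and 126 CPM in valproic acid libraries, 119, 106 and 117 CPM in poly(I:C) libraries and 98.3, 102 and 104 CPM in control libraries. Both exposed groups lay above control, and its log2 fold change with valproic acid was 0.30 with an adjusted p of 0.00297 in edgeR, and 0.17 with an adjusted p of 0.181 with poly(I:C). Ssrp1, a subunit of the histone chaperone FACT, rose by 0.17 with an adjusted p of 0.0166 in edgeR. Supt16h, the other FACT subunit, had 0.15 with an adjusted p of 0.102 against control, and was higher with valproic acid than with poly(I:C) at 0.22 with an adjusted p of 0.0435 in edgeR. Of 14 further nucleotide genes 1 fell: Samhd1, which breaks down deoxynucleoside triphosphates, was at 29.0, 29.9 and 29.3 CPM in valproic acid libraries, 33.8, 33.5 and 37.2 CPM in poly(I:C) libraries and 32.8, 35.3 and 35.1 CPM in control libraries. Valproic acid lay below all other libraries, and the log2 fold change against control was -0.23 with an adjusted p of 0.0497 in edgeR.

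The remaining lists held no call with valproic acid against control in edgeR, where an unadjusted p under 0.05 was found for 22.1% of all tested genes. Among 11 genes that control licensing and firing 2 had an unadjusted p under 0.05, Cdc7 with a log2 fold change of -0.13 and Ccna2 with 0.13. Among 14 checkpoint and repair genes 1 did, Exo1 with 0.22. Of 63 core histone genes 18 had enough counts to be tested and 4 had an unadjusted p under 0.05. Of these 18, 8 had log2 fold changes above 0 and 10 below. The summed level of the 63 ran from 152.3 to 168.6 CPM in valproic acid libraries, 157.1 to 169.0 CPM in poly(I:C) libraries and 164.9 to 170.3 CPM in control libraries. Hist3h2ba alone averaged 94.0 CPM in control, so the sum mainly follows that gene. Of the 63, 8 had no count in any library and most others averaged under 1 CPM in control. The list therefore cannot show whether histone mRNA of S phase differed. With poly(I:C) against control no gene of these pathway lists was called in edgeR. There, 2 of 24 fork genes, 5 of 25 E2F and RB genes, 2 of 11 chromatin genes, 1 of 11 firing genes, 3 of 18 histone genes and none of the 14 nucleotide or 14 checkpoint genes had an unadjusted p under 0.05, beside 12% of all tested genes. Top1, a topoisomerase that relaxes DNA ahead of the fork, had the smallest p of the fork genes, with a log2 fold change of 0.17 and an adjusted p of 0.105 in edgeR.

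**Figure D4:**
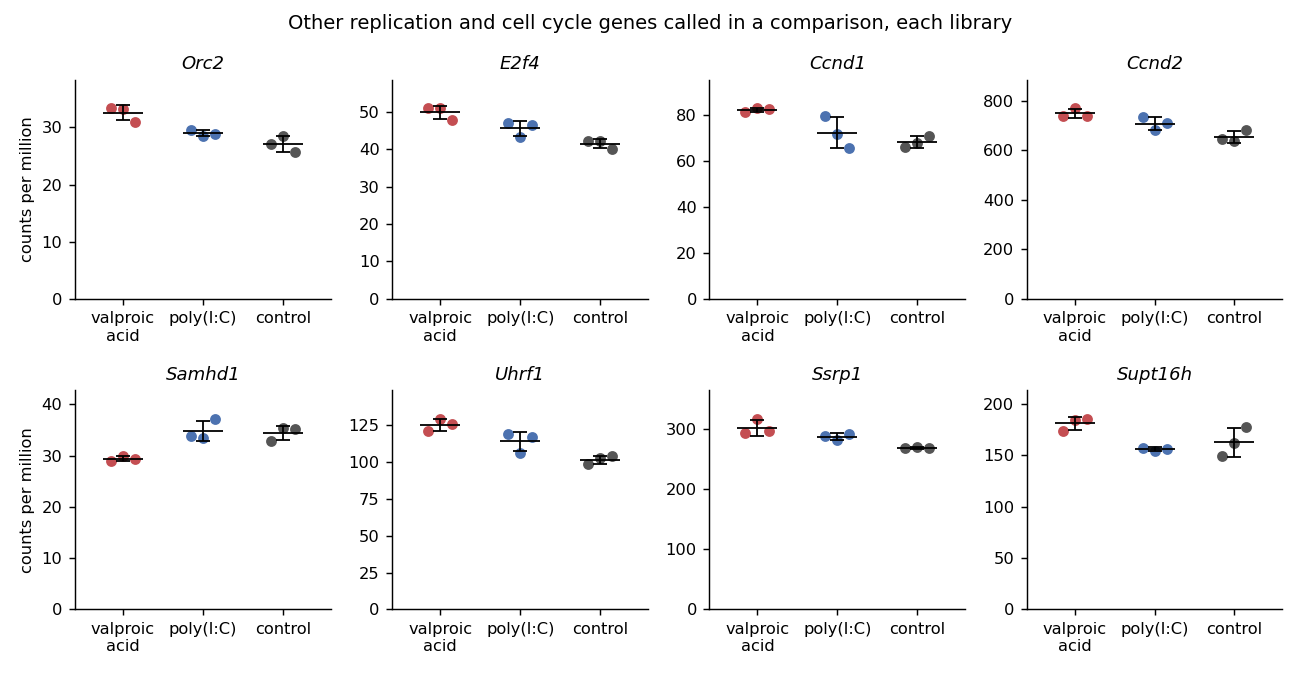
Level in CPM of the 8 genes from the further pathway lists that passed in at least 1 comparison, 1 point a library, with the mean (horizontal line) and SD (error bar) of 3 libraries per group. Samhd1 is lowest with valproic acid, and the means of the other genes are highest there.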

How the data were processed

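Libraries of 9 embryonic brain samples were made with a NEBNext Ultra kit after rRNA removal, per the labels' protocols. The deposited values are raw counts by Ensembl gene in 1 table, and they were used unchanged. Per the submitters' processing notes reads were aligned with HISAT2 to GRCm39 (mm39); which program counted them, with which strand setting and annotation, is not given in the sources used here. Symbols, exon lengths and overlaps came from GENCODE M21 (GRCm38), and 4675 IDs had no symbol. Of the 40 replication genes, 20 overlap another annotated gene in that release.

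Of 32102 genes with a count, 17171 passed edgeR's (version 4.0.16) filterByExpr with a minimum count of 10 and a minimum total of 15, and were tested. Libraries held 15399974 to 19883131 counts, TMM factors were 0.978 to 1.02, and the biological coefficient of variation was 7.44%. All 9 libraries were fitted with a mean per group, the 3 pairs of groups were compared with the two-sided quasi-likelihood F-test, and p-values were adjusted by Benjamini-Hochberg over all tested genes. The script was tested on simulated data. Intervals are 95%. Pairs of libraries within a group differed by more than counting error (chi-square divided by its degrees of freedom, 3.73 to 6.01). None was therefore an exact copy of another, but the ratio cannot tell separate embryos from separate libraries of the same brain. R was version 4.3.3.

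The 40 genes and all lists were chosen with earlier results of these data known. Of the 40, a gene was given in full if it was called in any comparison, belonged to MCM2-7, or had one of the 4 smallest p-values of a comparison with fewer than 4 calls. Up to 4 called genes of a pathway list, or up to 2 with the smallest p where none was called, and up to 2 of a marker list were named. Ccne2, Hist3h2ba and the genes given only by a fold change within their role fall outside the rule. Alternatives were DESeq2 size factors, DESeq2 1.42.0, other filters, only the compared libraries, a replicate block, sex-linked covariates, library sizes without very abundant genes, and leaving out each library.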

Additional observations from a re-analysis of the deposited data

How the results depend on the processing

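Among the 40 genes no log2 fold change named by the rule reversed while called, under any alternative run. With valproic acid against control, 6 genes were called by DESeq2 size factors and by library sizes that omit mitochondrial, globin and rRNA genes, 7 by DESeq2, without a filter (Rpa2 and Ung gained, Mcm6 lost) and at 1 CPM in 3 libraries, and 4 with only the 6 libraries or with the replicate block. Leaving out 1 library gave 2 to 5. The Y-linked and Xist covariates gave 0 (12 and 4 at an unadjusted p under 0.05 in edgeR). With poly(I:C) against control every setting gave 0 (1 to 6 at an unadjusted p under 0.05 in edgeR). With valproic acid against poly(I:C) the count was 2, or 3 without a filter, 1 with only the 6 libraries and 1 with the replicate block, 0 to 2 leaving out 1 library, 0 with either covariate (7 and 6 at an unadjusted p under 0.05 in edgeR) and 0 with only the libraries that hold Xist (6 at that level), where poly(I:C) has 1 library and is assumed to vary like the other groups. Over all genes, valproic acid against control called 1661 without a filter, 272 with the Y-linked and 19 with the Xist covariate, and 467 to 789 leaving out 1 library, against 1090. Poly(I:C) against control called 464 without a filter, 170 by DESeq2, 42 with Xist, 60 with only Y-linked libraries and 38 to 63 leaving out 1, against 92. Valproic acid against poly(I:C) called 1057 without a filter, 111 and 39 with the covariates, 44 with only Xist libraries and 113 to 294 leaving out 1, against 445. Fits with fewer libraries have fewer degrees of freedom, and for the other changes the cause was not tested. The replicate block called 912, 88 and 344 genes in the same 3 comparisons. Replicate numbers showed little pairing of the samples: 1 of 9 same-numbered pairs, control with poly(I:C) replicate 3, had a correlation of deviations above 0.1. Same-numbered pairs ran from -0.042 to 0.131 and the other pairs from -0.091 to 0.048. Low correlations cannot exclude a shared litter or batch. At these depths genes counted at a few CPM, such as Orc1 and Fen1, had the widest intervals.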
